A study of Mus musculus with 13 samples.

Results

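Complex I, the NADH:ubiquinone oxidoreductase, is the entry point of electrons from NADH into the mitochondrial respiratory chain, and it pumps protons across the inner membrane as it passes those electrons to ubiquinone. Most of its subunits are encoded in the nucleus and imported. The remaining 7, all in the membrane arm, are made inside the organelle from mitochondrial DNA, which both strands transcribe as long precursors that are cut into separate RNAs. Their transcripts are described here: MT-ND1 (ENST00000361390.2), MT-ND2 (ENST00000361453.3), MT-ND3 (ENST00000361227.2), MT-ND4L (ENST00000361335.1), MT-ND4 (ENST00000361381.2), MT-ND5 (ENST00000361567.2) and MT-ND6 (ENST00000361681.2). They were selected by transcript identifier from the 244939 transcripts listed in each library, and all 7 were found and passed the filter on low counts.

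The 13 libraries came from tumours of MDA-MB-231 cells, a human line derived from triple-negative breast cancer, which were injected into a mammary gland of female NSG mice 12 to 13 weeks old. The labels call the mice NSG Immunocompetent, although NSG is known as an immunodeficient strain. One group of 7 libraries came from mice given the vehicle by mouth every day, 40% DMSO with 60% polyethylene glycol (PEG), and the other group of 6 from mice given 30 mg/kg OCA in that same vehicle. OCA stands for obeticholic acid, a modified bile acid and an agonist of FXR, the bile acid receptor of the cell nucleus. The submitters state 14 days of growth, without saying from which day, and every tumour derived from the same cell line. The comparison asks which tumour RNAs differ under an FXR agonist.

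The vehicle libraries held 34015674 to 49844746 estimated reads and the OCA libraries 44150968 to 50596490. The 3 shallowest were vehicle replicates 2, 3 and 5. Label numbers fall into a lower series, with 3 vehicle and 4 OCA libraries, and an upper series, with 4 vehicle and 2 OCA libraries. The labels do not give the meaning of the series. The 3 shallowest libraries are all of the upper series. That series also holds vehicle replicate 1 at 49844746 reads and OCA replicates 2 and 6 at 50596490 and 44150968. Depth and series therefore overlap in part, and their separate parts were not tested. Among markers of the line, EGFR stood at 28.8 ± 5.00 TPM (SD, n = 13), and the PGR, ESR1 and CDH1 transcripts examined reached at most 0.646 TPM in any library, the value of CDH1. ERBB2 was at 9.19 ± 1.64 TPM (SD, n = 13). The VIM transcript chosen for the check was near 0, at 0.477 ± 0.380 TPM, while another VIM transcript, added after seeing the data, was at 4760 ± 738 TPM (SD, n = 13).

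The members were abundant RNAs in every tumour. Together they took 1.25% ± 0.127 of all reads (SD, n = 13), a summed 476917 to 640841 estimated reads per library. MT-ND4, one of the antiporter-like proton-pumping subunits, carried 37.0% ± 2.66 of the members' reads, and ranked from 3 to 9 among all transcripts by reads. MT-ND2, another antiporter-like subunit, carried 21.0% ± 1.53 of the members' reads. MT-ND5, the third of that kind and the longest member at 1812 bases, carried 14.5% ± 1.72, and MT-ND1, which forms part of the ubiquinone-binding site, 13.7% ± 1.38. The small subunits took the remainder, at 6.78% ± 1.04 for MT-ND6, 4.09% ± 0.354 for MT-ND3 and 2.97% ± 0.265 for MT-ND4L (SD, n = 13 for each share). The lowest rank by reads of any member in any library was 309, for MT-ND4L.

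Read shares follow transcript length as well as abundance, so levels were compared per length. On the TPM scale, which divides by effective length, MT-ND4L was the highest at 7318 ± 878 TPM and MT-ND5 the lowest at 1133 ± 149 TPM (SD, n = 13). Between them stood MT-ND3 at 5156 ± 505, MT-ND4 at 4009 ± 451, MT-ND2 at 3245 ± 373, MT-ND6 at 3000.5 ± 479 and MT-ND1 at 2371 ± 329 TPM. Neighbours in this order kept their places in all 13 libraries except MT-ND2 and MT-ND6, where MT-ND2 was higher in 8 of 13. The ranges of MT-ND4L and MT-ND3 did not overlap, nor did those of MT-ND1 and MT-ND5, while the other neighbours' ranges did.

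That order depended on the length used. The deposited effective length of MT-ND4L is 49.7 bases of a length of 297, or 16.7%, and that of MT-ND3 is 97 of 346 bases, against 86.3% of the length for MT-ND5. In RPKM by full length, a scale added after seeing the effective lengths, MT-ND4 was highest at 3348 ± 432 RPKM and MT-ND4L moved from first to the sixth place at 1247 ± 163 RPKM (SD, n = 13). MT-ND5 was lowest on both scales, at 995 ± 132 RPKM. MT-ND4L and MT-ND4 are known to share a single mRNA, and their ratio of MT-ND4L to MT-ND4 was 1.83 ± 0.0904 by TPM and 0.373 ± 0.0185 by reads per base of full length (SD, n = 13). The level of the shortest members relative to the others is therefore not settled by these files.

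**Figure D1:**
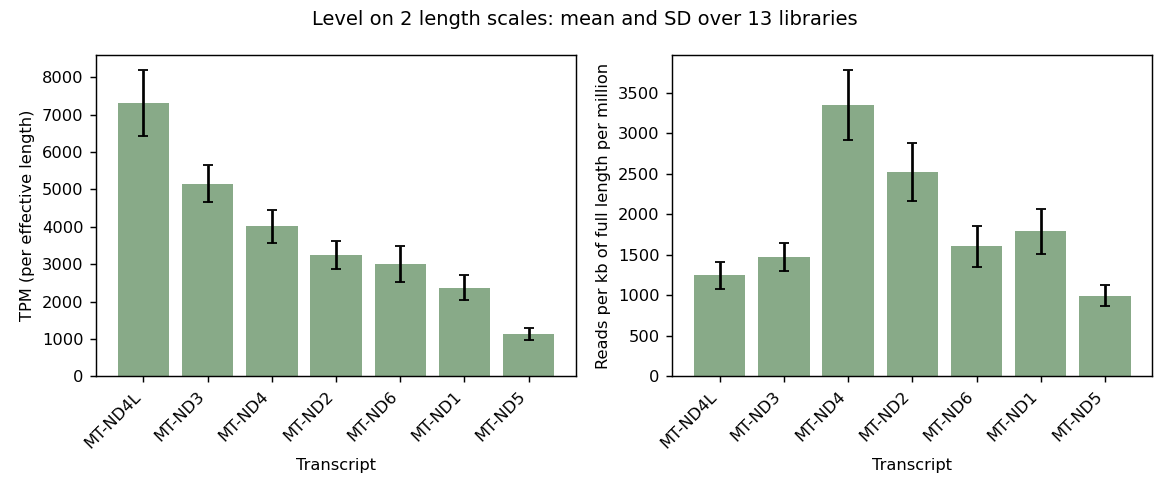
Mean level of each transcript over 13 libraries, with SD as whiskers, in TPM on the left and in RPKM by full length on the right, both on linear axes from 0. MT-ND4L is the tallest bar by TPM (7318) and the sixth of 7 by full length (1247), while MT-ND5 is the shortest bar on both scales.

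Treatment moved none of the 7 past the threshold. All 74973 transcripts that passed the low-count filter were tested with edgeR's quasi-likelihood test, and p-values were adjusted over all of them by Benjamini-Hochberg, with 0.05 as the threshold. It called 0 transcripts in the whole table (0%), so a count of 0 among the members is no result about them. DESeq2 called 12 of the same transcripts and limma-voom 0, and neither called a member. At an unadjusted p under 0.05 edgeR held 2078 transcripts, or 2.77% of those tested, with 1.40% lower and 1.37% higher in OCA. A single member, MT-ND2, was among the lower ones. Of the 1676 transcripts whose mean reached 100 CPM, as that of every member did, 41 were lower and 57 higher in OCA at that p. The members' log2 fold changes, OCA over vehicle, ran from -0.20 to 0.03 with a median of -0.02, beside a median of 0.01 over all transcripts tested. Among 488 transcripts of the members' length range whose mean reached 100 CPM, the median was -0.05. Of those 488, 67.2% were below 0, beside 5 of the 7 members. Each member had an edgeR adjusted p of 0.99999. The unadjusted 95% intervals of the fold change held 1 for every member but MT-ND2, and their bounds ran from 0.763, the lower bound of MT-ND2, to 1.23, the upper bound of MT-ND6.

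**Figure D2:**
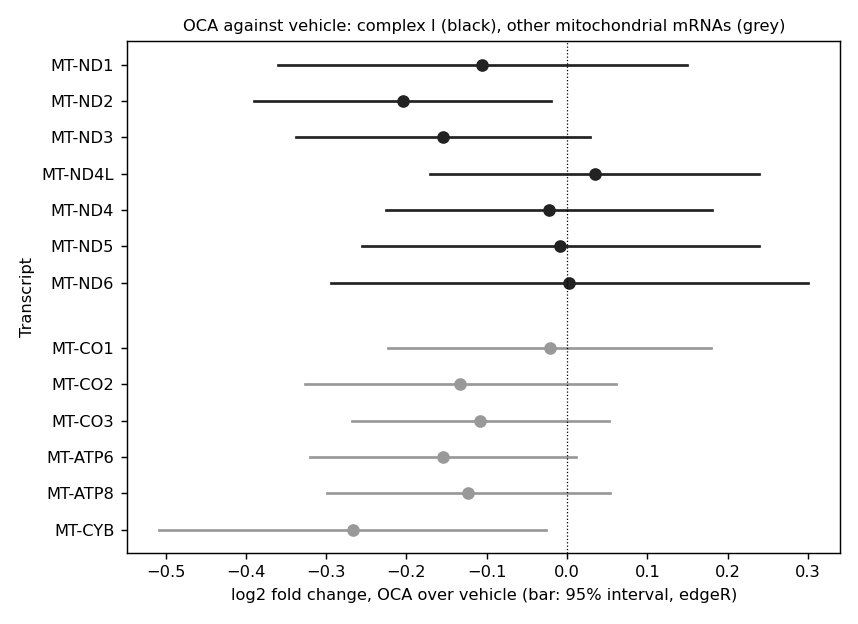
Log2 fold change of OCA over vehicle for the 7 complex I transcripts (black) and the 6 other mitochondrial mRNAs (grey), with bars for the 95% interval of edgeR's fit over 13 libraries. The MT-ND2 and MT-CYB bars end below 0 before any adjustment, and the other 11 bars cross it.

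MT-ND1, of 956 bases, sits where the membrane arm meets the peripheral arm that takes up NADH. Its values ran from 1368 through a median of 1854 to 2144 TMM-scaled CPM in vehicle tumours and from 1434 through 1617 to 2040 CPM in OCA tumours. All 6 OCA libraries lay inside the vehicle range. OCA over vehicle was -0.11 on the log2 scale (SE 0.12, with an edgeR adjusted p of 0.99999). The high vehicle values were those of replicates 2, 3 and 5, the shallowest libraries, at 2002, 2144 and 2022 CPM. Without these 3 the sign turned, to a log2 fold change of 0.08. They are also 3 of the 4 vehicle libraries of the upper label series. The other, vehicle replicate 1, held 49844746 reads and was at 1492 CPM. The parts of depth and series were not tested.

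MT-ND3, MT-ND4L and MT-ND6 are small membrane subunits; MT-ND3 holds a loop near the ubiquinone site known for its part in the enzyme's active and resting states. MT-ND3 measured 433, 553 and 592 CPM as the lowest, median and highest vehicle values and 418, 505 and 522 CPM in OCA. All 6 OCA libraries were below the vehicle median and 4 lay inside the vehicle range. The fitted log2 difference was -0.15 (SE 0.08), with an unadjusted p of 0.0923 and an adjusted p of 0.99999 by edgeR.

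MT-ND4L, the shortest member, measured 315, 383 and 442 CPM in vehicle and 327, 370.0 and 429 CPM in OCA tumours, with all 6 OCA libraries inside the vehicle range. Its log2 fold change of 0.03 (SE 0.10) had an edgeR adjusted p of 0.99999. MT-ND6 is the only member encoded on the other strand, and its mRNA is known to lack a poly(A) tail. It measured 614, 892 and 1083 CPM in vehicle and 689, 867 and 1062 CPM in OCA tumours. The group means were 849.7 ± 161 (SD, n = 7) and 851 ± 139 CPM (SD, n = 6), and the fold was 1.002 (95% interval 0.815 to 1.23).

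The antiporter-like subunits MT-ND2, MT-ND4 and MT-ND5 form the proton-pumping part of the arm. MT-ND2 measured 2418, 2818 and 3139 CPM in vehicle and 2096, 2438 and 2765 CPM in OCA tumours. All 6 OCA libraries were under the vehicle median, and 3 of them, OCA replicates 1, 3 and 4 of the lower label series, were under every vehicle library. The highest vehicle values, 3139 and 3096 CPM, were those of replicates 5 and 2, among the shallowest libraries. The groups overlapped. The OCA mean of 2440.5 ± 285 CPM (SD, n = 6) stood 0.868-fold to the vehicle mean of 2813 ± 260 (SD, n = 7) by the fit, with a 95% interval of 0.763 to 0.986. The log2 fold change of -0.20 (SE 0.09) had an unadjusted p of 0.0327 and an adjusted p of 0.99999 by edgeR, and stood at place 1297 of all tested transcripts by p. Within the lower label series it was -0.22 and within the upper series -0.11, with unadjusted edgeR values of 0.0972 and 0.437 for p. Without the 3 shallowest vehicle libraries it was -0.12, with an unadjusted edgeR value of 0.253 for p.

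MT-ND4 measured 3996, 4750.1 and 5189 CPM in vehicle and 3940, 4578 and 5434 CPM in OCA tumours, and OCA over vehicle was -0.02 on the log2 scale (SE 0.09, with an edgeR adjusted p of 0.99999). Of the OCA libraries, 2 lay under every vehicle library and 1 above them all. The sign differed between the label series, for MT-ND4 with -0.15 in the lower and 0.20 in the upper, and for MT-ND4L with -0.11 and 0.25. The difference between the series was not tested. MT-ND5 measured 1444, 1890 and 2277 CPM in vehicle and 1538, 1771 and 2234 CPM in OCA tumours. All 6 OCA libraries fell inside the vehicle range, and the fold was 0.994 (95% interval 0.838 to 1.18).

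**Figure D3:**
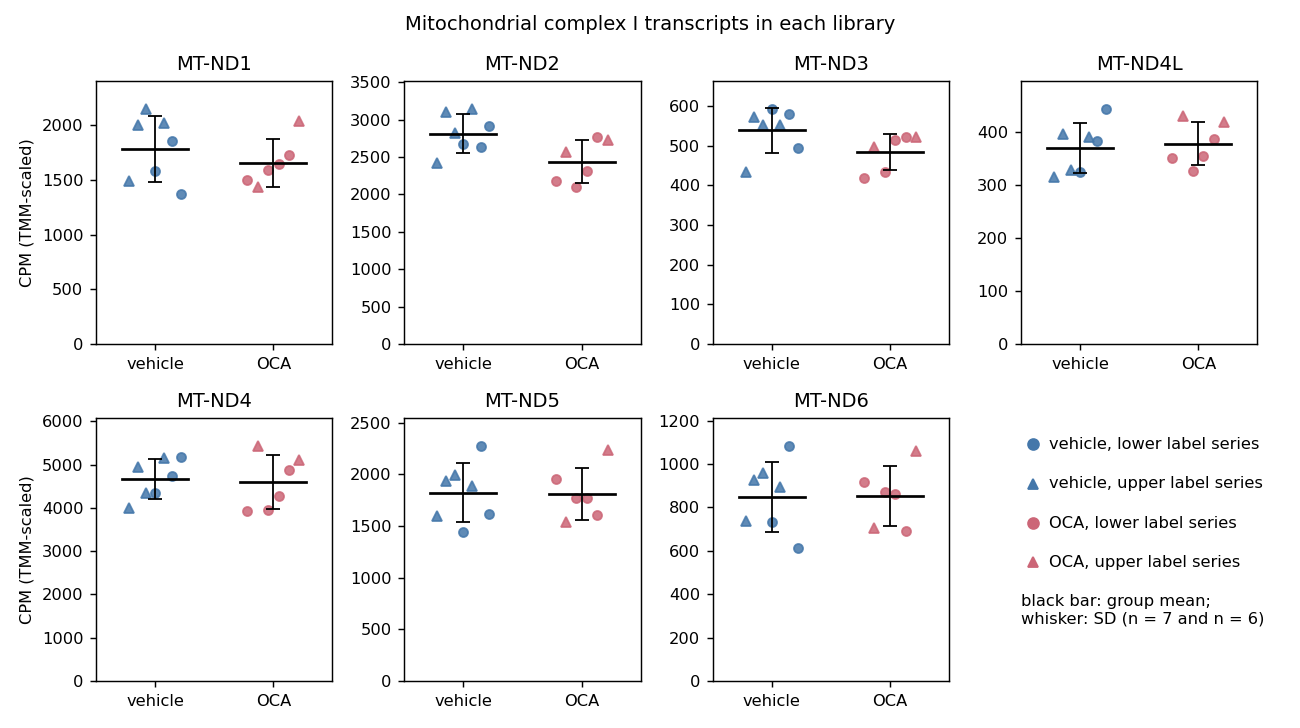
CPM of each of the 7 transcripts in each library, on linear axes from 0, with vehicle in blue, OCA in red, circles for the lower and triangles for the upper label series, and the group mean with its SD in black. The groups overlap in every panel, and in the MT-ND2 panel the 3 lowest OCA circles (2096 to 2316 CPM) lie under all vehicle points.

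Each member varied between libraries. The fitted OCA difference was smaller in size than the SD of log2 CPM over 13 libraries for every member but MT-ND2. For MT-ND2 the log2 fold change was -0.20 and the SD 0.181. The highest library exceeded the lowest by 1.76-fold for MT-ND6, 1.58-fold for MT-ND5 and 1.57-fold for MT-ND1, and by 1.38-fold for MT-ND4. The SD of log2 CPM over 13 libraries was 0.163 for MT-ND4, the least variable member, and 0.251 for MT-ND6, the most variable. These lie between the quartiles of the 1676 transcripts whose mean reached 100 CPM, on the log2(CPM + 0.5) scale, which were 0.155 and 0.267 around a median of 0.202.

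Summed over the 7, the share of reads was 1.28% ± 0.126 in vehicle (SD, n = 7; 1.09% to 1.44%) and 1.21% ± 0.129 in OCA tumours (SD, n = 6; 1.07% to 1.40%). The difference of -0.0711 percentage points was smaller than either SD, and 4 of the 6 OCA libraries lay inside the vehicle range. The other 2, OCA replicates 1 and 3, lay just below it, at 1.07% and 1.09%. Within the lower label series the means were 1.24% in vehicle and 1.15% in OCA, and within the upper series 1.31% and 1.33%. The 3 shallowest vehicle libraries were at 1.30% to 1.44%, and without them the difference was 0.00469 percentage points. Without the 3 libraries apart on the first principal component, vehicle replicates 1 and 4 and OCA replicate 2, it was -0.148 points. No test was made of this sum, since the members were chosen with results known. A share of reads in bulk tumour RNA gives neither the number of cells nor the amount of mitochondrial RNA per cell.

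**Figure D4:**
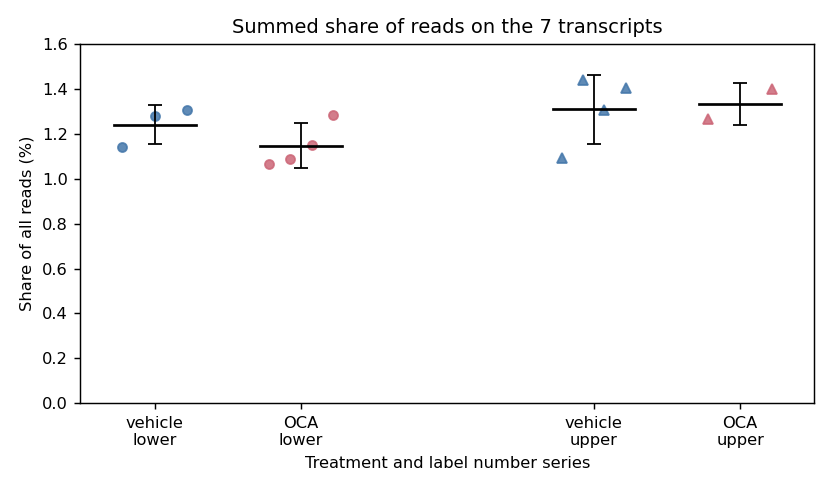
Percent of all reads on the 7 transcripts in each library, by treatment and label number series, on an axis from 0, with the mean and SD in black. Vehicle and OCA libraries overlap in both series, and the mean is lower with OCA in the lower series (1.15% against 1.24%) and not in the upper (1.33% against 1.31%).

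The members did not vary as a single block across tumours. Of 21 pairs of members, correlated on log2 CPM over the 13 libraries, 6 had a permutation p under 0.05 after Benjamini-Hochberg adjustment over the 21 pairs, and r ranged from -0.14 to 0.91. MT-ND5 and MT-ND6, neighbours on opposite strands, went together most closely (r = 0.913, permutation p = 3e-05, adjusted p = 0.00063; rho = 0.896, permutation p = 0.00012, adjusted p = 0.00252). The r was 0.852 without the 2 libraries farthest from the MT-ND5 median, 0.856 within the lower label series and 0.998 within the upper. Whether counting used strand is not stated, so MT-ND6 values may hold reads of antisense RNA at its locus. The part of such reads in any r of MT-ND6 was not tested. MT-ND4L and MT-ND4, on their shared mRNA, gave r = 0.907 (permutation p = 9e-05, adjusted p = 0.000945; rho = 0.874, permutation p = 0.00025, adjusted p = 0.00263). Here r was 0.904 without the 2 farthest libraries, 0.872 in the lower and 0.969 in the upper series.

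Between these pairs there was little relation. MT-ND4 and MT-ND5 correlated at r = 0.0559 (permutation p = 0.853; rho = -0.0495, permutation p = 0.878) and MT-ND4 and MT-ND6 at -0.141 (permutation p = 0.642; rho = -0.181, permutation p = 0.555). MT-ND1 went with MT-ND6 (r = 0.731, permutation p = 0.00618, adjusted p = 0.026; rho = 0.731, permutation p = 0.00598, adjusted p = 0.0419) and with MT-ND5 (r = 0.687, permutation p = 0.0109, adjusted p = 0.038; rho = 0.687, permutation p = 0.0115, adjusted p = 0.0483). Without the 2 farthest libraries these were 0.653 (permutation p = 0.0313) and 0.589 (permutation p = 0.0558). Leaving these out narrows the range and leaves 11 libraries, so it does not tell whether a relation rests on them. Within the lower and upper series r was 0.609 and 0.931 for MT-ND1 with MT-ND6, and 0.463 and 0.911 for MT-ND1 with MT-ND5. By treatment, r was 0.865 in vehicle and 0.545 in OCA tumours for MT-ND1 with MT-ND6, and 0.730 and 0.660 for MT-ND1 with MT-ND5.

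MT-ND2 went with MT-ND4 (r = 0.740, permutation p = 0.00481, adjusted p = 0.0254; rho = 0.703, permutation p = 0.00903, adjusted p = 0.0474) and with MT-ND3 (r = 0.734, permutation p = 0.00483, adjusted p = 0.0254; rho = 0.577, permutation p = 0.0437, adjusted p = 0.131). Without the 2 libraries farthest from the MT-ND2 median r was 0.549 (permutation p = 0.0819) and 0.468 (permutation p = 0.148), with neither p under 0.05. With 11 libraries of a narrower range left, this does not tell whether either relation rests on those 2. By treatment, r was 0.824 in vehicle and 0.884 in OCA tumours for MT-ND2 with MT-ND4, both above the pooled value, and 0.457 and 0.847 for MT-ND2 with MT-ND3. Within the lower and upper series r was 0.927 and 0.410 for MT-ND2 with MT-ND4, and 0.685 and 0.901 for MT-ND2 with MT-ND3. The closest pairs were also close within each treatment, with r of 0.884 in vehicle and 0.961 in OCA tumours for MT-ND5 with MT-ND6, and 0.944 and 0.966 for MT-ND4L with MT-ND4. All points of a library share its scaling.

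**Figure D5:**
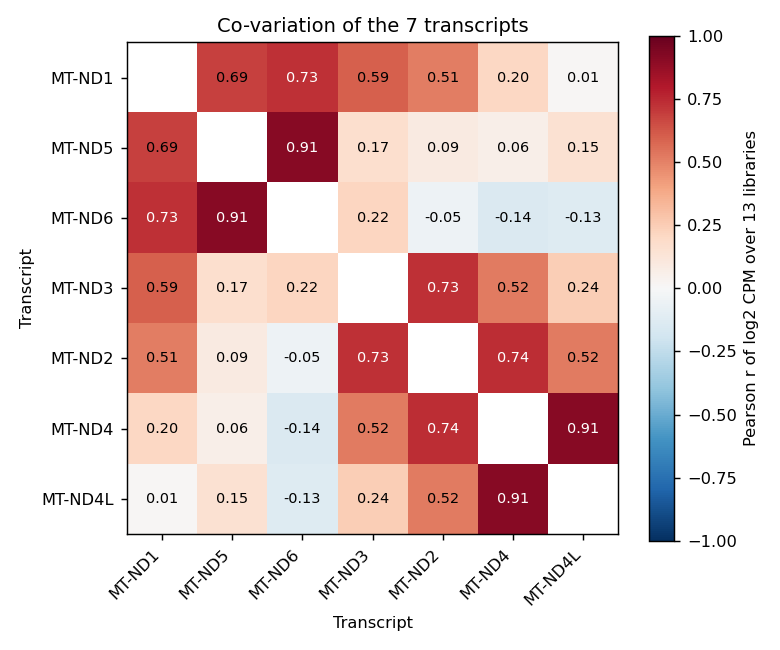
Pearson r of log2 CPM over 13 libraries for each of the 21 pairs, red for positive and blue for negative, with r printed in each cell. High values stand at MT-ND5 with MT-ND6 (0.91) and MT-ND4 with MT-ND4L (0.91), and values near 0 between these pairs.

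How reads were assigned differed among the members. MT-ND3, MT-ND4L, MT-ND4, MT-ND5 and MT-ND6 had whole-number estimates in 13 of 13 libraries, within 0.0005 of a read, and MT-ND1 and MT-ND2 in 0 of 13, which is what reads shared with other transcripts give. Transcripts of nuclear copies of MT-ND1 and MT-ND2, 2 in the list, held 0.0685% ± 0.0108 as many reads as those members (SD, n = 13). The identifiers of these copies were taken from general knowledge of the annotation. Values of MT-ND1 and MT-ND2 carry that uncertainty. In the mouse annotation, GENCODE M21, where the gene order is given, mt-Nd4l and mt-Nd4 overlap by 7 bases, and mt-Nd6 lies on the strand opposite to mt-Nd5 and overlaps its end by 14 bases. These overlaps are of the mouse genes, and those of the human members were not examined. No source used here says whether counting used strand, so reads from MT-ND6 and from antisense RNA at its locus cannot be told apart.

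The 6 other mitochondrial mRNAs, which encode subunits of complexes III, IV and V, took 2.46% ± 0.222 of reads in vehicle (SD, n = 7) and 2.29% ± 0.199 in OCA tumours (SD, n = 6). All 6 had a log2 fold change below 0, from -0.27 for MT-CYB, the cytochrome b of complex III, to -0.02 for MT-CO1, the catalytic subunit of complex IV, with a median of -0.13. Among all transcripts tested 49.0% were below 0, and among 488 whose mean reached 100 CPM and whose length was 297 to 1812 bases, the complex I members' range, 67.2% were, with a median of -0.05. None passed the adjusted threshold, and MT-CYB alone had an unadjusted edgeR p under 0.05, at 0.0324 (adjusted p = 0.99999). Complex I members made up 34.2% ± 1.54 of the reads on the 13 mitochondrial mRNAs in vehicle (SD, n = 7) and 34.5% ± 0.583 in OCA tumours (SD, n = 6), with all 6 OCA libraries inside the vehicle range.

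The nuclear-encoded side of the enzyme was examined through 21 transcripts, 1 for each of 21 subunit genes, with identifiers taken from general knowledge of the annotation because the files do not pair them with names. Of these, 1 had 0 reads in every library, 19 passed the low-count filter, and 0 passed the adjusted threshold. At an unadjusted p under 0.05, edgeR held 1 of them, lower in OCA, where 1.40% of all tested transcripts stood. Of the 19, 18 had a log2 fold change below 0, with a median of -0.13 and a range of -0.24 to 0.02, beside 49.0% below 0 and a median of 0.01 among all transcripts tested. Their mean levels ran from 6.11 to 101 CPM. Of 4574 transcripts of 297 to 1812 bases whose mean reached 10 CPM, 68.9% had a log2 fold change below 0, with a median of -0.08. Of 488 transcripts of that length whose mean reached 100 CPM, 67.2% were below 0, with a median of -0.05. Of the 1185 transcripts longer than 1812 bases whose mean reached 100 CPM, 43.5% were below 0, with a median of 0.02. The median level of the 19 was 39.9 CPM, under that minimum of 100 CPM. The median length of the 19 was 678 bases, with a range of 421 to 11660, which runs beyond the compared 297 to 1812 bases. The part of length in their values was not tested.

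Among 14703 transcripts whose mean reached 10 CPM, members aside, the one most like the members' summed CPM across the 13 libraries was MT-ATP8, a small subunit of complex V (Pearson r = 0.878). The transcripts ENST00000315422.9 (r = 0.869; 26.2 ± 4.90 CPM, SD, n = 13) and ENST00000532972.5 (r = 0.859; 29.4 ± 4.01 CPM, SD, n = 13) came next, and the files do not pair them with gene names. MT-ATP6 and MT-CO3 stood at places 19 and 20, and MT-CO2, MT-CYB and MT-CO1 at 70, 195 and 954. The mitochondrial ribosomal RNAs MT-RNR2 and MT-RNR1 stood at 4677 and 5910. These r were ranked by size, so no p is given.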

How the data were processed

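Bulk mRNA libraries of 13 tumours were sequenced with paired reads of 150 bases from RNA with an integrity number above 6, per the labels' protocols. Of 8 mice on vehicle and 7 on OCA, 7 and 6 gave RNA, and each library was taken as 1 animal. Salmon, STAR, FastQC and DESeq2 and the build GRCh38.p14 are listed in the submitters' processing notes. The annotation and the handling of mouse reads are not stated there. For each transcript the authors deposited an estimated count of reads and a TPM value, per the file headers. Effective length was equal in all libraries and 249 bases under the length of long transcripts.

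Estimated counts were rounded, filtered with filterByExpr (minimum count 10, total 15), scaled by TMM and tested with edgeR 4.0.16 (robust quasi-likelihood) in R 4.3.3. The standard error is the log2 fold change divided by the square root of F, and intervals cover 95%. The test was checked on simulated data with planted changes larger than those fitted for any member. That check does not bear on differences of the members' size. Correlations used 100000 permutations, two-sided, in scipy 1.17.1. Alternatives used DESeq2 1.42.0 and limma 3.58.1. Total depth of 34015674 reads or more leaves counting error small for the members. Member names come with the identifiers given for this work, and the names of the 6 other mitochondrial mRNAs and 2 ribosomal RNAs from general knowledge of the annotation. Lengths of the 13 mRNAs lay within 12 bases of the mouse genes. No human sequence or coordinate was used here.

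The members and lists were chosen with earlier results of these data known. The text names all members, the other mitochondrial mRNAs at the ends of the fold range, and the 2 non-mitochondrial transcripts most like the members' sum.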

Additional observations from a re-analysis of the deposited data

How the results depend on the processing

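No member passed the adjusted threshold in any of 27 alternatives, where the smallest adjusted p was 0.490, for MT-ND2 without a low-count filter. MT-ND2 and MT-ND3 stayed below 0 in all 27, at -0.27 to -0.11 and -0.23 to -0.04. An unadjusted p under 0.05 was held by MT-ND2 in 15 of them and by MT-ND3 in 1. The alternatives refit the same libraries, so these counts are not repeated support. In the main edgeR fit 2.77% of all tested transcripts had such a p. The other members changed sign under some alternatives. With the lower label series only, MT-ND1, MT-ND4L and MT-ND5 were at 0.016, -0.11 and 0.0019, while MT-ND4 kept its sign at -0.15. With the upper series only, MT-ND4 and MT-ND5 were at 0.20 and 0.028, while MT-ND4L kept its sign at 0.25. Without the 3 shallowest vehicle libraries, MT-ND1, MT-ND4 and MT-ND5 were at 0.077, 0.016 and 0.068. Without vehicle replicates 1 and 4 and OCA replicate 2, which stand apart on the first principal component, MT-ND4L and MT-ND6 were at -0.080 and -0.024. With limma on log2(TPM + 1), MT-ND4 and MT-ND5 were at 0.0098 and 0.033, and with a pseudocount of 0.1 at 0.0098 and 0.033. MT-ND5 was at 3.43e-05 with limma-voom, 0.0016 without a low-count filter, 0.011 with a minimum mean of 5 CPM and 0.0086 with the label series as a covariate. MT-ND6 was at -0.0036 with DESeq2, -0.0036 with median-of-ratios scaling and -0.0081 with plain total reads. Leaving out each library gave ranges of -0.0036 to 0.079 for MT-ND4L, -0.073 to 0.022 for MT-ND4, -0.072 to 0.052 for MT-ND5 and -0.066 to 0.070 for MT-ND6. The cause of these sign changes was not tested.

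The count of 0 transcripts past the threshold became 12 with DESeq2 and 1 without the 3 libraries apart on the first component, and 0 to 1 with each library left out, with 1 without vehicle replicate 7 and 1 without OCA replicate 6. Unadjusted p-values under 0.05, 2078 by edgeR, numbered 3130 by DESeq2, 3707 by limma-voom, 16150 without a filter and 1019 with a minimum mean of 5 CPM. The difference in summed share was 0.296 points as a share of the 13 mitochondrial mRNAs' reads, another denominator, -0.0373 points as a share of TPM, 0.00469 points of all reads without the 3 shallowest vehicle libraries, -0.148 without the 3 apart on the first component, and -0.109 to -0.0428 points of all reads with each library left out. No paired analysis was possible because replicate numbers were given in accession order and pair no libraries. The deposited files give no error of read assignment.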

Other observations

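The ratio of MT-ND2 to MT-ND4 reads within a library is free of library scaling. This ratio was chosen after the values had been seen and was not tested. It was 0.603 ± 0.0342 in vehicle (SD, n = 7; 0.553 to 0.648) and 0.532 ± 0.0330 in OCA tumours (SD, n = 6; 0.471 to 0.567), and 5 of 6 OCA libraries lay under every vehicle library. How many other pairs of transcripts separate the groups as much was not counted, so this count is no result about the pair. Within the lower label series the means were 0.577 in vehicle and 0.547 in OCA, and within the upper series 0.622 and 0.502. Without the 3 shallowest libraries the vehicle mean was 0.584. The ratio of MT-ND6 to MT-ND5 reads was 0.465 ± 0.0402 in vehicle (SD, n = 7) and 0.469 ± 0.0231 in OCA tumours (SD, n = 6). The mean ratio of MT-ND1 to MT-ND2 reads was 0.633 in vehicle and 0.681 in OCA tumours. For MT-ND5 to MT-ND4 it was 0.392 and 0.401, and for MT-ND4L to MT-ND4 0.0787 and 0.0823.

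The 2 mitochondrial ribosomal RNAs took 0.429% ± 0.0706 of reads in vehicle (SD, n = 7) and 0.427% ± 0.0607 in OCA tumours (SD, n = 6). Across 22 tests by Dixon's criterion at the 95% level, on each member's CPM and on 4 summed shares in each group, 0 libraries stood out, where about 1.1 would by chance.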
